A study of Mus musculus with 4 samples.

Results

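The genes described here are 34 genes of mitochondrial and peroxisomal fatty acid oxidation in mouse liver, with the nuclear receptor gene *Ppara* counted among them. They were chosen by gene symbol from a table of 35739 genes, and every one of the 34 was found there once and passed the filter on low values that left 9581 genes for testing. Liver RNA was sequenced from wild-type (WT) mice (replicates 2 and 3) and from *Usp21* knockout (KO) mice (replicates 1 and 3), with 1 library per mouse and 2 libraries per genotype. The KO allele lacks exons 3 and 4 of *Usp21*, a deubiquitylase gene, in all tissues, and was carried on a mixed C57BL/6 and 129/Sv background. Per the methods, WT and KO mice were littermates of 10 to 11 weeks, fed a normal diet under a cycle of 12 h light and 12 h dark, and the hour of sampling was not given in the sources used here.

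Fatty acids are burned in the liver after they have been joined to coenzyme A. Long chains cross the mitochondrial inner membrane as carnitine esters, are shortened by repeated rounds of dehydrogenation, hydration, a second dehydrogenation and thiolysis, and pass their electrons through the electron transfer flavoprotein to the respiratory chain. Peroxisomes shorten very long and branched chains with enzymes of their own and hand the products on as carnitine esters. PPAR-alpha, the receptor encoded by *Ppara*, is bound by fatty acids and switches on many of these genes in the fasted liver.

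PPAR-alpha binds DNA with RXR at a direct repeat of the hexamer AGGTCA with one base between the copies (DR1, AGGTCANAGGTCA), so the RefSeq promoters of the genes (build GRCm38.p6, from 250 bases before to 50 after the start) were searched on both strands. Promoters were matched for 30 of the 34 genes, 32 promoters in all, and *Crat*, *Decr1*, *Hsd17b4* and *Acaa2* were not matched. An exact DR1 was found in 0 of the 32 promoters, beside 0.0396% of all 32851 promoters. At so low a share, 0 of 32 is the usual outcome for any promoters. Sequence outside this window was not searched, so the 0 does not show that the genes lack such sites. The single hexamer was found in 5 of the 32 promoters (15.6%), close to the 16.3% of all promoters. The 5 stretches are shown because these promoters belong to genes that lay on both sides of the comparison between genotypes, and the hexamer (AGGTCA, or TGACCT where it lies on the other strand) is in capitals in each. They lie, in the order printed, at chr19:3323192-3323227 (forward strand), chr3:153944872-153944893 (reverse), chr11:70015495-70015530 (reverse), chr7:140116484-140116519 (reverse) and chr4:108118636-108118671 (reverse).
Cpt1a: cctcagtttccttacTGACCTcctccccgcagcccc
Acadm: gTGACCTtcgggctccggtgac
Acadvl: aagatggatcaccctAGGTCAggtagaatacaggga
Echs1: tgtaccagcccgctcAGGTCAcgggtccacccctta
Scp2: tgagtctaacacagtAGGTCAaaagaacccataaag

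The closest matches to the whole DR1 that lay before the start held 10 of its 12 fixed bases, in *Echs1* and *Etfa* (capitals, at chr7:140116480-140116516 and chr9:55512296-55512332, both on the reverse strand), and 1 more such match, in *Slc25a20*, lay after the start. The share of all promoters with a match of 10 bases was not counted, so it is not known whether such matches are unusual. Matches of at least 11 bases were found in 0 of the 32 promoters and in 0.554% of all promoters, a share at which 0 of 32 is again the usual outcome. The GC box GGGCGG, in contrast, was found in 23 of the 32 promoters (71.9%), compared with 35.7% of all promoters. The CCAAT box was found in 40.6% and 37.4%, while the TATA box (TATAAA) and the E-box (CACGTG) were found in 0 of the 32, compared with 13.6% and 7.15% of all promoters.
Echs1: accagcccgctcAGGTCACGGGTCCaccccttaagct
Etfa: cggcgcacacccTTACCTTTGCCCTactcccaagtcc

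Expression was deposited as TPM, the abundance per gene that salmon estimates from reads assigned to transcripts, corrected for transcript length. TPM values can therefore be compared between genes, but they keep no record of sequencing depth, and the depth of these libraries is unknown. In a second table of reads counted per gene, 25 of the 34 genes were listed at 0 in all 4 libraries, and only *Acsl5* reached 3 reads in a library, with at most 6, so that table could not be used for the other 33 genes. It also listed at 0 in all libraries 428 of the 686 genes at 100 TPM or more in every library, for a cause that was not tested. *Usp21* itself was at 4.07 and 6.29 TPM in WT replicates 2 and 3, against 1.64 and 2.93 TPM in KO replicates 1 and 3, with no overlap. Defining hepatocyte markers were high in every library, with a summed level of 51178 to 74763 TPM over 9 genes, with 60915 and 51178 TPM in KO against 74763 and 58525 TPM in WT. The 9 markers did not move as one, with 4 higher and 5 lower in KO, 2 and 3 of them without overlap. Their median log2 fold change was -0.04, while over all tested genes 66.7% were higher and the median was 0.15. Markers of Kupffer cells summed to at most 135 TPM, of exocrine pancreas to at most 42.2 TPM (*Cela1*, with the other 4 listed at 0), and of sinusoidal endothelial cells to at most 67.0 TPM. Stellate cell markers summed to 53.9 and 41.8 TPM in WT against 78.1 and 60.4 TPM in KO, without overlap, with 4 of 4 tested genes higher in KO (median log2 fold change 0.37), 2 of them with overlap. Of the sinusoidal endothelial markers 6 of 6 were higher in KO (median 0.17), 5 of them with overlap, and of the Kupffer cell markers 2 of 6. These counts are to be read beside the 66.7% of all tested genes that were higher. Of all tested genes, 34.4% were higher in KO without overlap and 10.9% were lower without overlap. The marker counts given by overlap, those for hepatocytes included, are to be read beside those 2 shares. Cholangiocyte markers summed to 14.6 and 15.9 TPM in WT against 38.0 and 24.5 TPM in KO. Most of this was *Spp1*, at 13.2 and 12.7 TPM in WT and at 33.4 and 20.7 TPM in KO, and 2 of the 6 markers were tested. Leukocyte markers summed to 5.05 and 31.1 TPM in WT against 3.24 and 2.49 TPM in KO. *S100a8*, the 1 tested of 6, made up 29.1 TPM of the sum in WT replicate 3. Adipocyte markers summed to at most 0.822 TPM, with *Plin1* and *Lep* at 0. The part of these markers in the results was not tested. In bulk liver, fewer cells of a type and less RNA per cell cannot be told apart.

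The 34 genes held between 0.586% and 0.765% of the TPM of a library, with the lowest share in WT replicate 3 and the highest in KO replicate 3. *Scp2*, which encodes a peroxisomal thiolase and a lipid transfer protein from a single gene, was the most abundant, with a mean of 2339 TPM over the 4 libraries. It was followed by the mitochondrial thiolase gene *Acaa2* with 525 TPM, the peroxisomal thiolase gene *Acaa1b* with 382 TPM and *Etfb*, for the beta subunit of the electron transfer flavoprotein, with 381 TPM. *Acad10*, an acyl-CoA dehydrogenase gene, had the lowest mean of 5.81 TPM, below *Crat* with 8.72 TPM and *Ppara* with 12.9 TPM. The plot of TPM by library shows that differences between genes were far larger than differences between libraries.

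**Figure D1:**
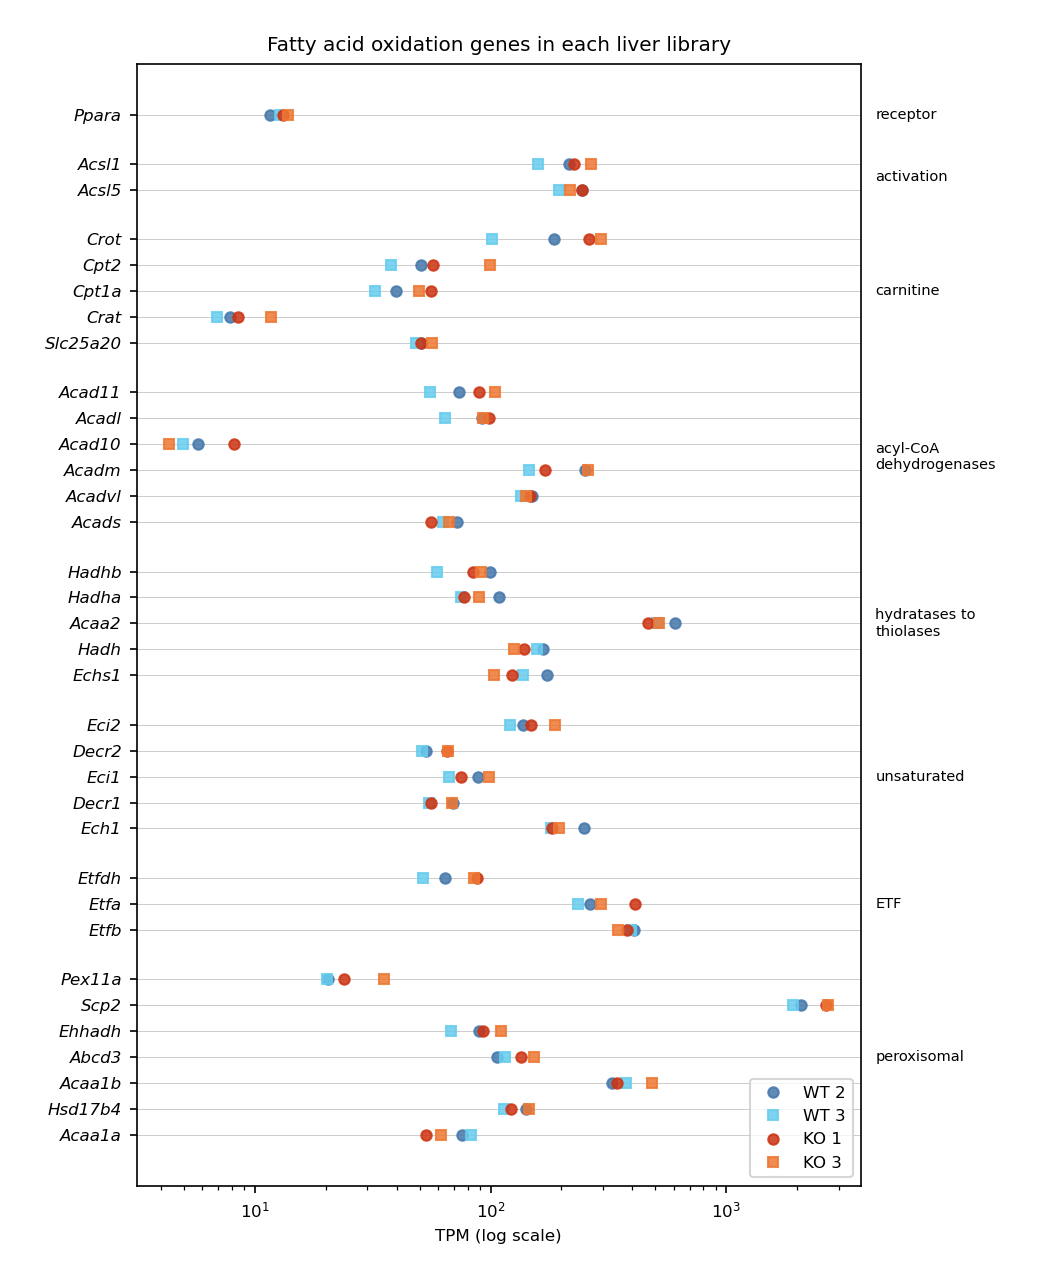
TPM of each of the 34 genes in the 4 liver libraries, on a log axis, with the genes grouped by role. WT replicates 2 and 3 are blue and light blue, KO replicates 1 and 3 are red and orange, and the 4 carnitine genes *Crot*, *Cpt2*, *Cpt1a* and *Crat* have both KO libraries to the right of both WT libraries, while *Scp2* stands apart at 1916 TPM or more in every library.

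The question of the comparison was which genes differ between *Usp21* KO and WT livers, and it was tested for each gene by limma on log2(TPM + 1), fitted over all 9581 genes and two-sided. After Benjamini-Hochberg adjustment, 0 of the 34 genes passed 0.05, compared with 8 (0.0835%) of all genes tested, and the lowest adjusted p among the 34 in limma was 0.464. Before adjustment, 5 of the 34 (14.7%) had a p under 0.05, compared with 1005 (10.5%) of all genes. Of these, 4 were higher in KO (11.8% of the 34, beside 8.45% of all genes), namely *Crot*, *Etfdh*, *Acad11* and *Cpt1a*, and 1 was lower (2.94%, beside 2.04%), namely *Acaa1a*. In simulated data with 200 of 9581 genes changed, limma recovered 78% of those changed by 3 on the log2 scale and 0% of those changed by 1. The largest difference among the 34 genes was 1.01.

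By mean log2(TPM + 1), 26 of the 34 genes were higher in KO and 8 were lower, or 76.5% higher beside 66.7% of all tested genes. The median log2 fold change of the 34 was 0.17, compared with 0.15 for all tested genes, and 18 of the 34 lay above the latter value. The KO libraries both exceeded the WT libraries for 17 genes (50%, beside 34.4% of all genes) and lay under them for 4 genes (11.8%, beside 10.9%). Only *Crot* reached a change of 2-fold (2.94%, beside 3.68% of all genes). For 13 genes the difference between genotypes was larger than the difference between replicates in either genotype, and for 21 it was not. The same count was not made over all tested genes, so 13 of 34 cannot be read as high or low. With 2 libraries per genotype, an exact permutation test of a single value cannot give a two-sided p below 0.333. When the libraries were scaled to an equal upper quartile, the median of all genes was 0.04 in place of 0.15 and that of the 34 genes was also 0.04, with 21 genes higher in KO.

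**Figure D2:**
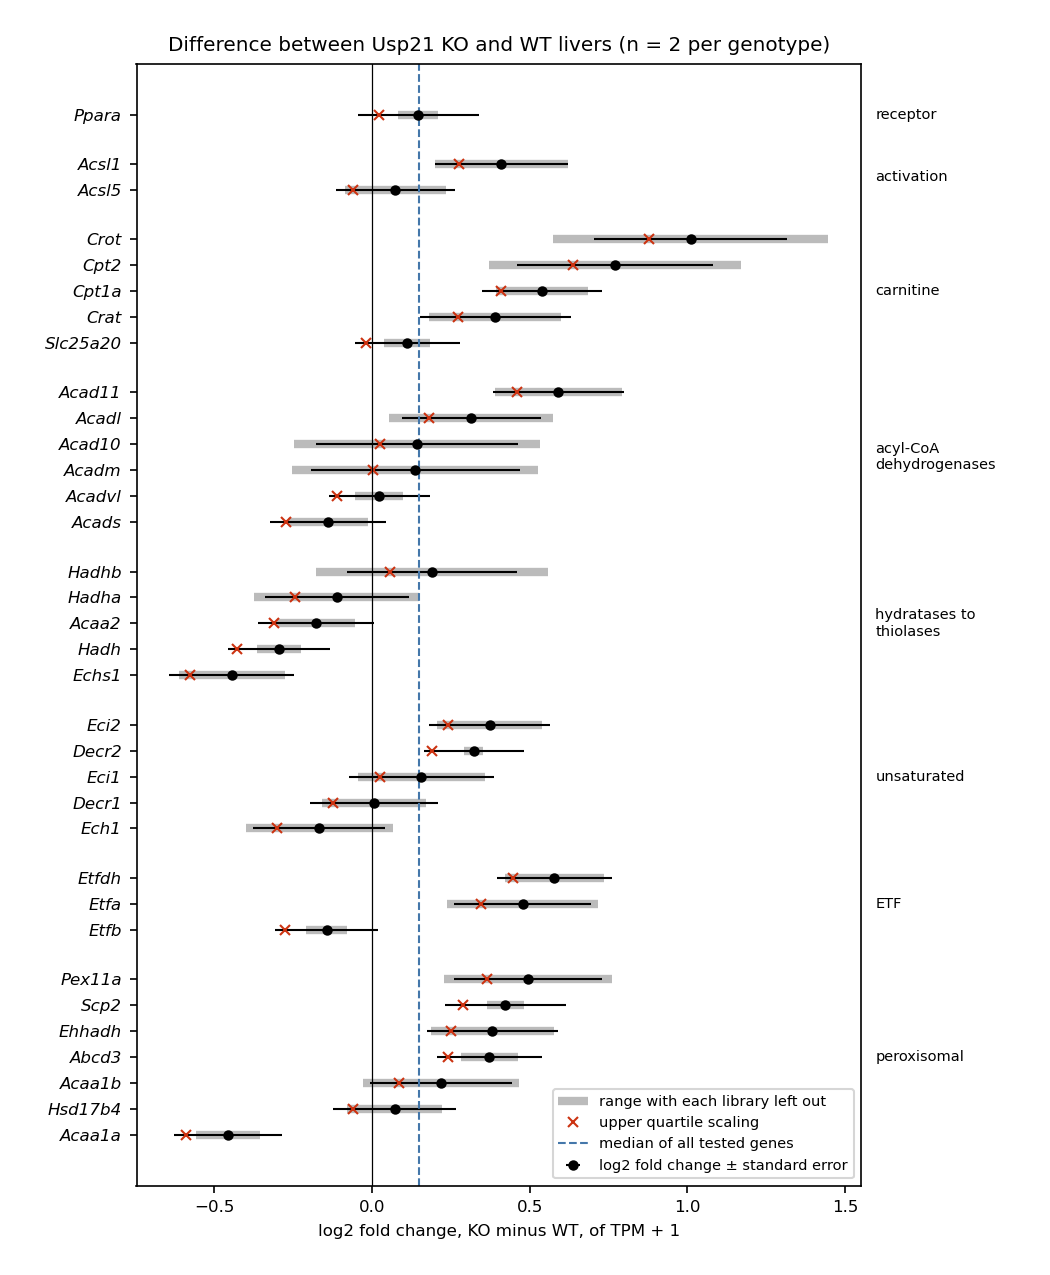
Log2 fold change (KO minus WT) of the 34 genes on the log2(TPM + 1) scale, grouped by role, with standard errors from limma (black, n = 2 per genotype), the range when each library was left out (grey bars), the value under upper quartile scaling (red crosses) and the median of all tested genes at 0.15 (dashed). The carnitine genes lie to the right, up to 1.01 for *Crot*, and the group from hydratases to thiolases lies mostly to the left, down to -0.44 for *Echs1*.

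WT replicate 3 stood apart from the other libraries for these genes. It was the lowest library for 24 of the 34 genes (70.6%), compared with 2989 (31.2%) of all tested genes, and WT replicate 2 was above it for 30 of the 34, by a median of 0.27 on the log2 scale. Over all tested genes the median difference between the WT replicates was 0.00. KO replicate 3 was the highest library for 17 of the 34 genes, WT replicate 2 for 11, KO replicate 1 for 5 and WT replicate 3 for 1. Over all 9581 tested genes these counts were 2072, 1657, 4397 and 1455, in the same order. KO replicate 1 was above KO replicate 3 for 10 of the 34 genes, with a median difference of -0.16 on the log2 scale. Over all tested genes it was above for 6188, with a median of 0.14. Mitochondrially encoded transcripts took 11.6% of the TPM in WT replicate 3, compared with 15.5% to 16.5% in the others, and *S100a8*, a neutrophil gene, was at 29.1 TPM there, compared with 0.738 to 2.26 TPM in the others. The part of these differences in the lower values of WT replicate 3 was not tested. WT replicate 2 also stood apart, for a pair of PPAR-alpha targets outside oxidation that were named after their values were seen. *Cyp4a14* was at 356 TPM there, compared with 8.76 to 21.6 TPM in the others, and *Cyp4a10* was at 508 TPM, compared with 39.7 to 91.3 TPM, and their log2 fold changes were -2.63 and -1.80. Without WT replicate 3, 19 of the 34 genes were higher in KO, and the share of all tested genes in that setting is not given here. The median log2 fold change of the 34 was then 0.06, compared with 0.146 for all tested genes. Without WT replicate 2 it was 0.34, compared with 0.155 for all tested genes.

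**Figure D3:**
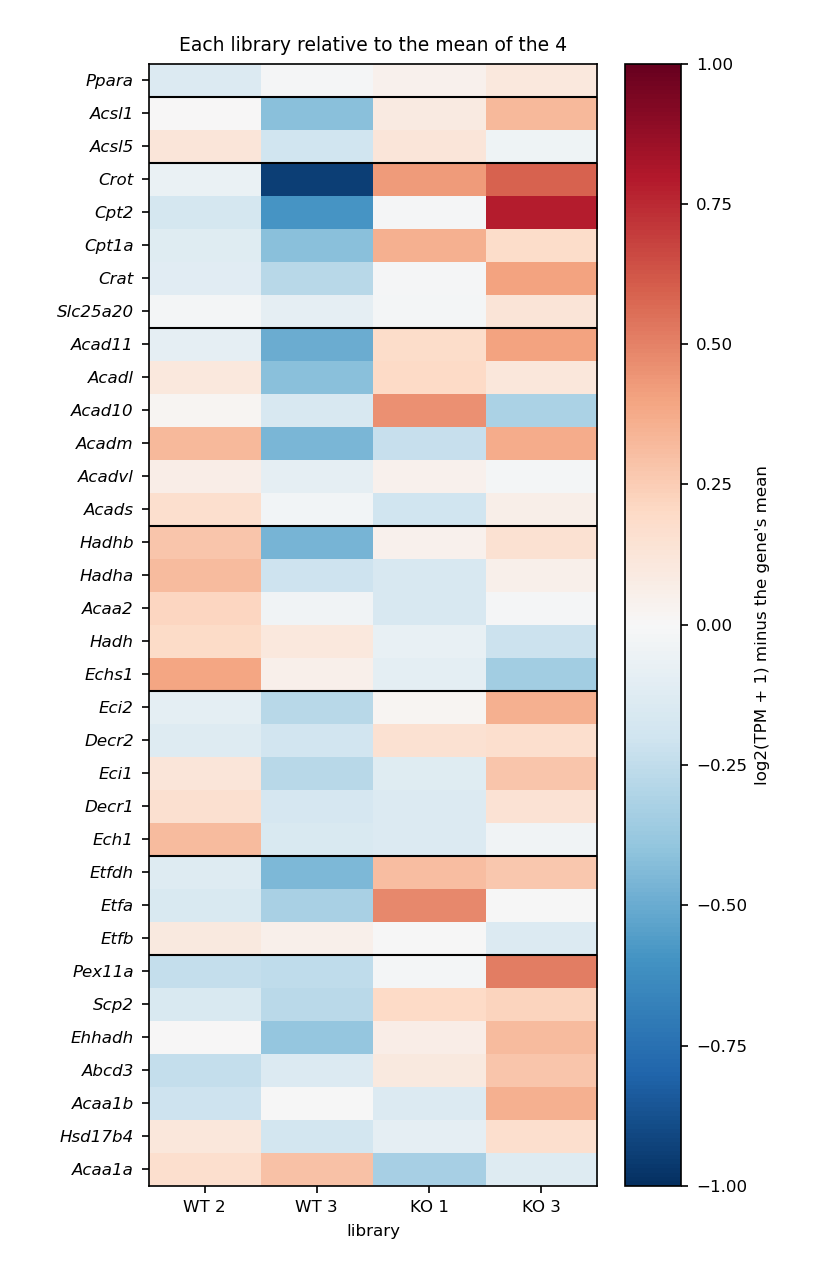
Heat map of log2(TPM + 1) in each library minus the mean of the gene over the 4 libraries, with 1 row per gene, grouped by role, and 1 column per library (red above and blue below the mean, from -1 to 1). The column of WT replicate 3 is blue for most rows, and it is the lowest of the row for 24 of the 34 genes.

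Ahead of oxidation, *Ppara* (chromosome 15, 85734983 to 85802819 on GRCm38, as for all gene positions here) was at 11.6 and 12.8 TPM in WT, against 13.2 and 13.9 TPM in KO. Its KO libraries were both above its WT libraries, but by a log2 fold change of 0.15 (standard error, SE, 0.19), equal to the median of all genes. The long-chain acyl-CoA synthetases join fatty acids to coenzyme A. *Acsl1*, the main form of hepatocytes, was at 214 and 159.6 TPM in WT and at 227 and 267 TPM in KO, without overlap (log2 fold change 0.41, SE 0.21). *Acsl5* overlapped between genotypes, with 244 TPM in both WT replicate 2 and KO replicate 1, and a log2 fold change of 0.07.

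Of the genes that make and carry carnitine esters, 5 of 5 were above WT in both KO libraries, beside 34.4% of all tested genes, although *Slc25a20* was so by a margin of hundredths of a TPM. Their summed TPM was 335 and 227 in the WT libraries and 434 and 511 in the KO libraries, and their median log2 fold change was 0.54, compared with 0.15 for all genes. *Crot* (chromosome 5, 8966033 to 8997324) encodes the peroxisomal carnitine octanoyltransferase, which turns shortened peroxisomal products into carnitine esters. It was at 186 and 101 TPM in WT and at 262 and 294 TPM in KO, or 144 ± 60.0 and 278 ± 22.3 TPM (SD, n = 2 per genotype), a ratio of means of 1.94. This was the largest difference of the 34 genes, with a log2 fold change of 1.01 (SE 0.31, limma adjusted p = 0.464), with 0.57 once WT replicate 3 was left out and 1.45 once WT replicate 2 was.

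*Cpt1a* (chromosome 19, 3322334 to 3385733) encodes the liver form of carnitine palmitoyltransferase 1, the step at which entry of long chains into mitochondria is controlled. Its values were 39.9 and 32.4 TPM in WT against 56.0 and 49.6 TPM in KO, so that the genotypes were further apart than the replicates. The log2 fold change was 0.54 (SE 0.19, limma unadjusted p = 0.0316, adjusted p = 0.464), and it stayed between 0.39 and 0.69 with each library left out. *Cpt2*, for the enzyme that takes the carnitine off again inside the mitochondrion, was at 50.8 and 37.9 TPM in WT and at 57.0 and 99.9 TPM in KO. KO replicate 3 was far above the other 3 libraries, and the log2 fold change of 0.77 (SE 0.31) became 0.37 without it. *Crat*, the acetyltransferase, had a log2 fold change of 0.39. *Slc25a20*, the carrier that exchanges carnitine esters across the inner membrane, had one of 0.11, with WT replicate 2 at 50.95 TPM and KO replicate 1 at 50.97 TPM. Under upper quartile scaling *Slc25a20* was at -0.02, while the other 4 genes stayed between 0.27 and 0.88.

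The acyl-CoA dehydrogenases take the first pair of hydrogens, each from chains of a certain length. The 4 classical enzymes did not move as one. *Acadl* (long chains) was at 92.3 and 64.0 TPM in WT and at 98.8 and 93.0 TPM in KO, with WT replicate 2 just below the KO libraries and a log2 fold change of 0.31 that was 0.05 without WT replicate 3. *Acadm* (medium chains) was at 251 and 146 TPM in WT and at 171 and 260.3 TPM in KO, so that its spread within each genotype was larger than the difference of 0.14. *Acadvl* (very long chains) lay between 135 and 149.8 TPM in all libraries, with a log2 fold change of 0.02, and shares 33.2% of its 31-base stretches with *Dvl2*, itself at 1.36 TPM or less. *Acads* (short chains) was at -0.14, with overlapping groups.

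Of the newer members of the family, *Acad11* (chromosome 9, 104063377 to 104127725), for an enzyme that acts on 4-hydroxy acids, was at 73.5 and 55.3 TPM in WT and at 89.5 and 104 TPM in KO. The KO libraries both exceeded WT, and the log2 fold change was 0.59 (SE 0.21, limma unadjusted p = 0.0313, adjusted p = 0.464). *Acad10* was low, at 5.77 and 4.95 TPM in WT and at 8.17 and 4.35 TPM in KO, and its sign turned from 0.14 to -0.25 without KO replicate 1. Its transcripts share 22.9% of their 31-base stretches with those of its neighbour *Acad12*, so salmon may divide reads between them.

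Of the genes for the following steps inside mitochondria, 4 of 5 had a lower mean in KO, beside 3187 of all 9581 tested genes. The median over the 5 was -0.18 on the log2 scale, compared with 0.15 for all tested genes. For 2 of the 5 both KO libraries lay under WT, beside 10.9% of all tested genes, and the other 3 overlapped between genotypes. An unadjusted p under 0.05 in limma was found for 0 of the 5, beside 10.5% of all tested genes. *Hadha*, among the 4, was at 0.15 without WT replicate 2. Their summed TPM was 1153 and 939 in the WT libraries and 890.1 and 927 in KO, so that KO replicate 3 lay just below WT replicate 3. *Echs1* (chromosome 7, 140105710 to 140116476), short-chain enoyl-CoA hydratase, was at 173 and 137 TPM in WT and at 123 and 104 TPM in KO. The KO libraries both lay under WT, and the log2 fold change was -0.44 (SE 0.20, limma unadjusted p = 0.0692, adjusted p = 0.489), with values between -0.61 and -0.27 with each library left out.

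*Hadh* (chromosome 3, 131233419 to 131272101), for the short-chain 3-hydroxyacyl-CoA dehydrogenase, was at 167 and 158 TPM in WT and at 139 and 126 TPM in KO, again without overlap, a log2 fold change of -0.30 (SE 0.16). *Acaa2*, the thiolase that ends the round, was at 605 and 510.3 TPM in WT and at 466 and 518 TPM in KO, with KO replicate 3 between the WT libraries. Under upper quartile scaling the values of *Echs1*, *Hadh* and *Acaa2* were -0.58, -0.43 and -0.31.

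*Hadha* and *Hadhb* encode the alpha and beta subunits of the trifunctional protein, which performs the last 3 steps on long chains. The genes lie head to head on chromosome 5, and 86 bp separate their annotated starts (30155162 on the reverse strand for *Hadha* and 30155248 on the forward strand for *Hadhb*). The 85 bases between the starts, printed from the forward strand (chr5:30155163-30155247), hold 2 GC boxes (capitals) and 0 CCAAT boxes. They are shown because this stretch lies upstream of both genes.
Hadha and Hadhb: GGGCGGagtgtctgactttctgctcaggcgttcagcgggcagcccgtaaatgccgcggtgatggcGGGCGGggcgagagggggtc

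*Hadha* was at 108 and 75.0 TPM in WT and at 77.5 and 89.6 TPM in KO, and *Hadhb* was at 99.3 and 59.2 TPM in WT and at 84.4 and 91.0 TPM in KO. Both genes were highest in WT replicate 2 and lowest in WT replicate 3, so that the genotypes overlapped, with log2 fold changes of -0.11 and 0.19. The ratio of *Hadha* to *Hadhb* was 1.09 and 1.27 in the WT libraries and 0.918 and 0.985 in KO. The value of *Hadhb* is uncertain, since 23.7% of its 31-base stretches occur in transcripts of other genes.

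Unsaturated chains need isomerases and reductases before a round can go on. *Decr2*, a peroxisomal 2,4-dienoyl-CoA reductase gene, had the closest replicates of this group, at 53.4 and 51.2 TPM in WT and at 65.2 and 66.1 TPM in KO, with a log2 fold change of 0.32 (SE 0.16). *Eci2*, an isomerase gene, was also above WT in both KO libraries, at 137 and 121 TPM in WT and at 148 and 187 TPM in KO (log2 fold change 0.37). The mitochondrial enzyme genes *Decr1* and *Eci1* overlapped between genotypes, with log2 fold changes of 0.01 and 0.16, and so did *Ech1*, a dienoyl-CoA isomerase gene, at -0.17.

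The electron transfer flavoprotein is a pair of subunits that hands electrons to a membrane enzyme, its ubiquinone oxidoreductase, encoded by *Etfdh*. The subunit genes lay on opposite sides of the comparison. *Etfa* (chromosome 9, 55454508 to 55512243) was at 263 and 234 TPM in WT and at 409 and 293 TPM in KO, with a log2 fold change of 0.48 (SE 0.22), and KO replicate 1 was far above the rest. *Etfb* (chromosome 7, 43444083 to 43457800) was at 407 and 394 TPM in WT and at 379 and 346 TPM in KO, with a log2 fold change of -0.14 (SE 0.16). The ratio of *Etfa* to *Etfb* was 0.647 and 0.596 in the WT libraries and 1.08 and 0.847 in KO, or 0.622 ± 0.0366 and 0.964 ± 0.165 (SD, n = 2 per genotype). *Etfb* shares 49.9% of its 31-base stretches with other annotated transcripts, and how salmon divided its reads was not tested. *Etfdh* (chromosome 3, 79603788 to 79629500) was at 64.3 and 51.5 TPM in WT and at 87.7 and 85.1 TPM in KO, with a log2 fold change of 0.58 (SE 0.18, limma unadjusted p = 0.0212, adjusted p = 0.464) that lay between 0.42 and 0.73 with each library left out.

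Of the 10 genes with peroxisomal products in the list (*Crot*, *Acad11* and *Decr2* included), 9 were higher in KO, 7 with both KO libraries above WT, beside 66.7% and 34.4% of all tested genes, and the median log2 fold change was 0.38. Of 21 mitochondrial genes, 14 were higher, 8 of them without overlap, close to those shares of all genes, and the median was 0.14. The difference between the compartments was not tested. *Eci2*, whose product is found in both compartments, was counted as mitochondrial. Counted as peroxisomal instead, a choice made after the data were seen, it gave medians of 0.37 over 11 genes and 0.12 over 20 genes. *Crat* (log2 fold change 0.39) and *Ech1* (-0.17) were counted as mitochondrial only, and no other placing of them was tried. *Acsl1*, *Acsl5* and *Ppara* were counted in neither. Without *Scp2*, whose TPM exceeds that of the other 9 together, the peroxisomal genes summed to 1072 and 983 TPM in WT and to 1187 and 1454 TPM in KO. The mitochondrial genes summed to 3151 and 2579 TPM in WT and to 2879 and 2985 TPM in KO, both between the WT values. The ratio of the former sum to the latter was 0.340 and 0.381 in the WT libraries and 0.412 and 0.487 in KO.

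**Figure D4:**
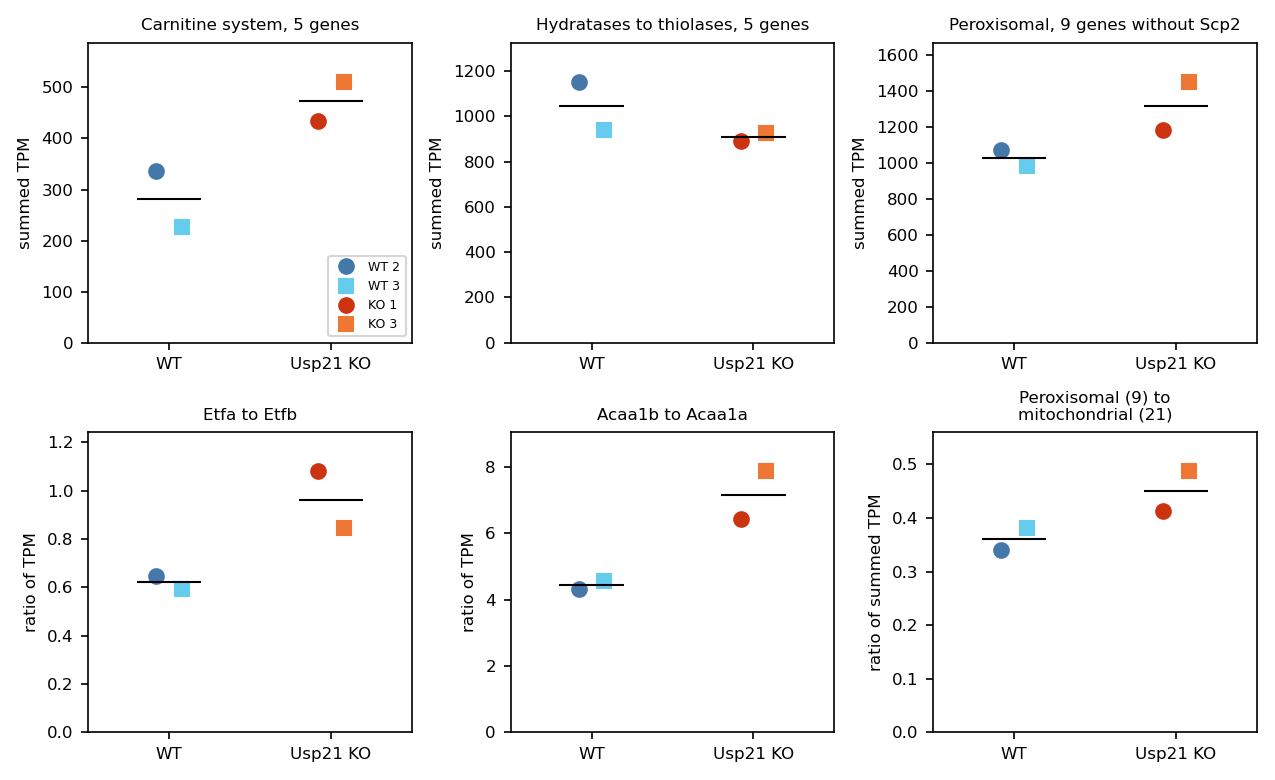
Summed TPM (upper row) and ratios of TPM (lower row) in each library, with points for the libraries, black lines for the mean of each genotype (n = 2) and all axes starting at 0. The carnitine sum (335 and 227 in WT, 434 and 511 in KO), the peroxisomal sum and the 3 ratios have both KO points above both WT points, while the sum from hydratases to thiolases has both KO points below.

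*Scp2* (chromosome 4, 108043839 to 108144998) was at 2083 and 1916 TPM in WT and at 2656 and 2701 TPM in KO, or 1999 ± 118 and 2679 ± 31.8 TPM (SD, n = 2 per genotype). The genotypes were well apart, with a log2 fold change of 0.42 (SE 0.19, limma unadjusted p = 0.0740, adjusted p = 0.494) that stayed between 0.36 and 0.48 with each library left out. It shares 33.4% of its 31-base stretches with the pseudogene *Scp2-ps2*, which was listed at 0 in 3 libraries and at 1.92 TPM in KO replicate 1. The deposited value is a sum over the transcripts of the gene and does not separate the thiolase form from the transfer protein.

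The paralogs *Acaa1a* and *Acaa1b* encode peroxisomal 3-ketoacyl-CoA thiolases. *Acaa1a* (chromosome 9, 119339676 to 119350299) was the 1 peroxisomal gene lower in KO, at 75.6 and 82.5 TPM in WT and at 53.3 and 61.5 TPM in KO, without overlap (log2 fold change -0.46, SE 0.17, limma unadjusted p = 0.0397, adjusted p = 0.468). *Acaa1b* (chromosome 9, 119148023 to 119157093) was several times more abundant, at 326 and 376 TPM in WT and at 343 and 484 TPM in KO, with overlapping groups and a log2 fold change of 0.22. The ratio of *Acaa1b* to *Acaa1a* was 4.31 and 4.55 in the WT libraries and 6.43 and 7.87 in KO, while the sum of both was 402 and 458 TPM in WT against 396 and 545 TPM in KO, with overlap. Of the 31-base stretches of *Acaa1b* transcripts, 40% occur in transcripts of *Acaa1a*, so both values depend on how salmon divided shared reads, which was not tested.

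The 100 bases before the RefSeq starts of the Acaa1 paralogs are shown because the genes shared much of their transcripts and stood on opposite sides of the comparison. They lie at chr9:119341194-119341293 on the forward strand for *Acaa1a* and chr9:119157094-119157193 on the reverse strand for *Acaa1b*, each printed 5′ to 3′. The stretch of *Acaa1a* holds 2 GC boxes and 0 CCAAT boxes and that of *Acaa1b* holds 0 GC boxes and 1 CCAAT box, read as ATTGG on this strand (capitals).
Acaa1a: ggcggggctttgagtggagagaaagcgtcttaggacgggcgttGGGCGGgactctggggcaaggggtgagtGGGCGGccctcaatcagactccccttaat
Acaa1b: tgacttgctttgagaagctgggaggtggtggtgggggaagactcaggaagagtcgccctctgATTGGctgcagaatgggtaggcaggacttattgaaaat

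*Ehhadh*, the bifunctional hydratase and dehydrogenase of the peroxisome, was at 89.4 and 68.0 TPM in WT and at 93.3 and 111 TPM in KO, with a log2 fold change of 0.38 (SE 0.21) that was 0.19 without WT replicate 3. *Hsd17b4*, which encodes the other such enzyme and acts on branched chains and bile acid precursors, overlapped between genotypes at 0.07. *Abcd3*, for the transporter that brings dicarboxylic and branched acyl-CoA into peroxisomes, was at 106 and 115 TPM in WT and at 135 and 153 TPM in KO (log2 fold change 0.37, SE 0.17). *Pex11a*, a peroxin gene linked to peroxisome division, was at 20.5 and 20.3 TPM in WT and at 24.0 and 35.2 TPM in KO. Its WT replicates were nearly equal, and its log2 fold change of 0.49 (SE 0.23) was 0.23 without KO replicate 3.

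Fatty acid oxidation has further genes, and 60 tested genes of 4 other lists of the pathway had 37 higher and 23 lower means in KO, and their median was 0.04 on the log2 scale. Before adjustment, 11 of the 60 had a p under 0.05 in limma, beside 10.5% of all tested genes, against which the counts of the lists that follow are also to be read (8.45% higher and 2.04% lower). Of 13 other genes of activation, transport and malonyl-CoA control, 1 was among these 11, *Slc27a2*, for the very long-chain acyl-CoA synthetase, with a log2 fold change of 0.43 and both KO libraries (480 and 492 TPM) above both WT libraries (387 and 334 TPM). In the same list *Slc22a5*, the plasma membrane carnitine transporter, was at 0.54 and *Acsm3* at 0.47. Of 15 other mitochondrial genes, 3 were higher and 1 was lower with an unadjusted p under 0.05. *Pcca*, a subunit of propionyl-CoA carboxylase, was at 26.6 and 35.7 TPM in WT and at 75.6 and 48.7 TPM in KO (log2 fold change 0.96, SE 0.28). *Acadsb*, for the dehydrogenase of short branched chains, was at 0.55 and *Hsd17b10*, for another mitochondrial hydroxyacyl-CoA dehydrogenase, was at -0.67.

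Of 16 other genes of peroxisomal oxidation, 10 had a higher and 6 a lower mean in KO, and their median was 0.10 on the log2 scale. *Cat*, for catalase, was at 975 and 798 TPM in WT and at 1184 and 1204 TPM in KO, without overlap (log2 fold change 0.44, SE 0.19). Of 16 other peroxins and related genes, 9 were higher and 7 lower, of which 2 and 3 passed 0.05 before adjustment. *Acbd5*, a membrane tether of peroxisomes, was at 0.59 and *Pex11g* was at -0.66.

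Among 12 tested partners and coregulators of PPAR-alpha, 8 were higher in KO, and 1 in each direction had an unadjusted p under 0.05 in limma. *Ncor1*, a corepressor gene, was at 13.1 and 21.7 TPM in WT and at 28.4 and 29.8 TPM in KO (log2 fold change 0.75), and *Rxrg*, one of the RXR genes, was at -1.03. *Ppargc1a*, the coactivator gene, was at 0.80 (limma unadjusted p = 0.0534), with a mean of 1.20 TPM. Among 19 tested targets of PPAR-alpha outside oxidation, 9 were higher and 10 lower, with a median of -0.03, and 3 had an unadjusted p under 0.05. *Plin2*, for the coat protein of lipid droplets, was at 119 and 88.7 TPM in WT and at 179 and 271 TPM in KO (log2 fold change 1.09, SE 0.27, limma adjusted p = 0.461). *Pdk4*, the kinase gene that restrains pyruvate oxidation, was at 1.00 from low levels (0.457 and 0.423 TPM in WT, 1.25 and 2.69 TPM in KO), and *Acot3*, a peroxisomal thioesterase gene, was at -1.52.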

How the data were processed

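The 4 liver RNA-seq libraries were grouped by genotype from their labels. The authors estimated abundance with salmon against mm10 and deposited TPM per gene, and a second deposited table holds log2(TPM + 1). The authors also counted reads with HTSeq on mm10 and deposited TMM-normalized CPM, a signal whose values were whole multiples of 1 read in each library (100% of values above 0 within 0.02 reads). These gave 102898 to 148164 recovered reads per library, with a count of 0 allowing up to 3 reads (20.0 to 27.7 CPM, counting error only). The log2 values of these CPM were deposited as well. Versions, annotation release and strand setting are not given in the sources used here.

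The 9581 genes whose mean reached 1 TPM were tested on log2(TPM + 1) with limma 3.58.1 (R 4.3.3, trend, prior degrees of freedom 3.62). This moderated test took the place of the authors' ANOVA in Partek. This scale understates changes of low genes. The alternatives were other pseudocounts (0.1 and 5), filters (none, 5 TPM), upper quartile scaling, no moderation, removal of mitochondrially encoded genes, each library left out, the CPM values, and edgeR 4.0.16 and DESeq2 1.42.0 on the recovered reads. The test was checked on simulated data. The 34 genes, the lists and the roles were chosen with earlier results of these data known. All 34 genes were named, and by rule at most 3 genes of each other list, those with the smallest unadjusted p, with *S100a8* among them. *Cyp4a10* and *Cyp4a14* were named outside this rule, after their values were seen. Genes that share sequence with the 34, such as *Acad12*, and the markers *Plin1* and *Lep* were also named outside it. Some genes of these lists are not reported here. Positions and 31-base stretches (both strands) came from GENCODE M21 (GRCm38) and promoters from RefSeq (GRCm38.p6), and motifs other than DR1, the single hexamer, the E-box and the TATA box were chosen after the promoters were seen. Marker lists are given for hepatocytes, Kupffer cells, endothelial cells, stellate cells, cholangiocytes, leukocytes, adipocytes and exocrine pancreas.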

Additional observations from a re-analysis of the deposited data

How the results depend on the processing

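No paired analysis was made because the labels give no batch, date or pairing. The genotypes share only 1 replicate number (3), which does not show that those mice were matched. Of all tested genes, 8 passed an adjusted p of 0.05 in limma, compared with 4 without the filter, 0 without moderation (806 at an unadjusted p under 0.05), and 0 with any 1 library left out (542 to 1188 unadjusted). On the recovered reads, whose 5146 genes lack many of the most abundant ones, 1 gene passed in DESeq2 and 12 in edgeR. Among the 34 genes, the number with an unadjusted p under 0.05 was 5, and without moderation it was 2 (*Decr2* and *Scp2*). With each library left out it lay between 0 (without WT replicate 3) and 4, with 2 each (*Cpt2* and *Pex11a*, *Etfa* and *Acaa1a*) without KO replicates 1 and 3. Under upper quartile scaling the 5 were *Crot*, *Hadh*, *Echs1*, *Etfdh* and *Acaa1a*. The direction held under all alternatives for 22 genes. Upper quartile scaling turned *Acsl5* (-0.059), *Slc25a20* (-0.020), *Acadvl* (-0.11), *Decr1* (-0.12) and *Hsd17b4* (-0.062). *Acsl5* was also at -0.052 on the CPM values, -0.092 in edgeR and -0.088 in DESeq2. With a library left out, the values lay between -0.085 and 0.23 for *Acsl5*, -0.25 and 0.53 for *Acadm*, -0.053 and 0.099 for *Acadvl*, -0.25 and 0.53 for *Acad10*, -0.37 and 0.15 for *Hadha*, -0.18 and 0.56 for *Hadhb*, -0.044 and 0.36 for *Eci1*, -0.16 and 0.17 for *Decr1*, -0.079 and 0.22 for *Hsd17b4*, -0.030 and 0.47 for *Acaa1b*, and -0.40 and 0.065 for *Ech1*. The causes were not tested. The other 33 genes were under 3 reads in the CPM table and got no value there, nor did *Usp21*. A mean of at least 5 TPM left out *Usp21*.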
